A study of Mus musculus with 16 samples.

Results

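Prostaglandins and leukotrienes are short-lived lipid signals that macrophages make from arachidonic acid, and 10 genes for their synthesis, breakdown and sensing were followed here in mouse bone-marrow-derived macrophages. The genes were listed by symbol as Pla2g4a, Ptgs1, Ptgs2, Ptges, Tbxas1, Hpgd, Alox5, Alox5ap, Ptger2 and Ptger4, out of 19937 genes measured. A probe set annotated to a single gene was found for 9 of the 10, with 1 probe set each. Ptgs1, the constitutive cyclooxygenase, had 0 and was not analysed here. The cells were NFAT5 KO macrophages with LPS, NFAT5 KO macrophages without stimulation, wild-type macrophages with LPS and wild-type macrophages without stimulation, 4 arrays in each of these 4 groups, all on a 129sv background. The transcription factor NFAT5 is best known from cells under hypertonic stress. LPS, from the outer membrane of Gram-negative bacteria, acts through Toll-like receptor 4. The sources used here do not give the LPS dose, its duration, the age of the animals or which part of Nfat5 is deleted.

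In the pathway, cytosolic phospholipase A2 (Pla2g4a) frees arachidonic acid from membranes. The cyclooxygenases turn it into prostaglandin H2, from which microsomal prostaglandin E synthase (Ptges) makes prostaglandin E2 and thromboxane synthase (Tbxas1) makes thromboxane A2. Hpgd, a dehydrogenase, starts the breakdown of prostaglandins. In the other branch 5-lipoxygenase (Alox5), helped by its activating protein (Alox5ap), makes leukotrienes. Ptger2 and Ptger4 encode the receptors of prostaglandin E2 that raise cyclic AMP. In macrophages the inducible cyclooxygenase Ptgs2 and Ptges are textbook targets of LPS.

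Promoter sequences are shown for 4 of the genes: Ptgs2, which rose most with LPS, Hpgd and Alox5, which were low in unstimulated KO cells, and Ptger4, whose LPS response differed between the genotypes. They run 5′ to 3′ on the gene's strand, from 250 bases before to 50 after the RefSeq start in build GRCm38.p6. Capitals mark matches, on either strand, to GGGA and CC set apart by 4 bases of any kind (like an NF-kB site), TGACG (the short cAMP response element), TTGCNNAA (like a C/EBP site), TGGAAA (the core of the NFAT5 element) or TATAAA (the TATA box).
Ptgs2, chr1:150099781-150100080, plus strand: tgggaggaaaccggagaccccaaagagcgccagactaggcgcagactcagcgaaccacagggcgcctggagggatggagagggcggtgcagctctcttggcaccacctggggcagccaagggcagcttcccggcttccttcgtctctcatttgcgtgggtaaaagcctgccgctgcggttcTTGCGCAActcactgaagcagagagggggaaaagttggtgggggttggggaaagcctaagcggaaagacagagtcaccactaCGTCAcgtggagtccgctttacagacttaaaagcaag
Hpgd, chr8:56294302-56294601, plus strand: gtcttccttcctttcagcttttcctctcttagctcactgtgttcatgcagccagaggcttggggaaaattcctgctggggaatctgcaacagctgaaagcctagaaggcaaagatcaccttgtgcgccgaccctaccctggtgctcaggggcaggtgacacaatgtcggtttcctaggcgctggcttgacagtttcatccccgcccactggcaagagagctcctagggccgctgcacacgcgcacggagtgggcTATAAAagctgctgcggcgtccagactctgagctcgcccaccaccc
Alox5, chr6:116461129-116461428, minus strand: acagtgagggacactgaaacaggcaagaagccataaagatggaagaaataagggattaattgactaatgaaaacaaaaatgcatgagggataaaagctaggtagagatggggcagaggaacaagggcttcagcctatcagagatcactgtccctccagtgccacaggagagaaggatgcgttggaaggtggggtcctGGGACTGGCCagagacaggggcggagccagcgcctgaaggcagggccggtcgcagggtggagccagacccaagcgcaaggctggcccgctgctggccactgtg
Ptger4, chr15:5244138-5244437, minus strand: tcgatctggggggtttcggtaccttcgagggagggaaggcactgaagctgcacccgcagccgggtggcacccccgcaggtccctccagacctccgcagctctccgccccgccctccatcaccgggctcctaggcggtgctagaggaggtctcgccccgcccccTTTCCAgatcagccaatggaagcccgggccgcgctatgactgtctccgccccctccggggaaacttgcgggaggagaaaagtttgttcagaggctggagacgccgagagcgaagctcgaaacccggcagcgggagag
In Ptgs2 the capitals are a C/EBP-like match at -69 to -62 from the start and a short cAMP response element at 13 to 17. The Hpgd window held a TATA box match, that of Alox5 an NF-kB-like match and that of Ptger4 an NFAT5 core. In Ptges no motif of the set matched in this window. Among 32851 mouse promoter windows, 20.7% held the NF-kB-like motif, 20.8% TGACG, 10.8% TTGCNNAA, 21.4% TGGAAA and 13.6% TATAAA, and 1.79% held the full element TGACGTCA, which matched in none of the 9 genes with a promoter sequence. The NFAT5 core was in 2 of these 9 genes, Ptger2 and Ptger4. These matches are letters in a window and not measured binding.

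All values below are log2 levels from robust multi-array average (RMA), so a difference of 1 is a 2-fold change, and errors are SD over 4 arrays for levels and SE for differences. RMA compresses changes of dim genes, and probe sets differ in brightness, so the levels of the 9 genes are compared within a gene only. A gene was called where its Benjamini-Hochberg adjusted p in the limma fit over all genes was under 0.05. Array medians ran from 6.76 to 6.86, and arrays of a group correlated by 0.981 to 0.996 over all genes. Nfat5 averaged 9.09 ± 0.29 in KO and 10.07 ± 0.34 in wild-type cells with LPS, and 9.04 ± 0.12 in KO and 9.39 ± 0.21 in wild-type cells without it. Its KO difference was called with LPS (-0.98, adjusted p = 0.00169). Without LPS the genotypes overlapped and the difference was not called (-0.36, adjusted p = 0.602). These values do not check the labels, since the probed part of the gene may lie outside the deletion. By Xist and the Y-linked Kdm5d, 3 of 4 KO arrays in each treatment had a male pattern, and all other arrays, KO array 4 included, a female pattern. Genotype and sex therefore largely cannot be told apart, and the genotype results are also given on the female arrays. Of 8 macrophage markers, Cd68 and Lyz2 had group means of 12.58 to 13.20 and 13.57 to 13.69. Those of Mertk ran from 8.98 to 10.92 and those of Cd14 from 10.58 to 12.82. Among markers of other cells, Cpa3 of mast cells had group means of 4.49 to 4.56 and Ly6g of neutrophils 5.45 to 5.52. Dcn of stroma had 6.07 to 6.27, but Col1a1 of stroma had 7.96 to 8.11 and Camp of neutrophils 6.83 to 7.62. Among platelet markers, Pf4 had 9.24 to 11.04 and Treml1 8.23 to 9.54. Several markers of these lists, named at the end, moved with LPS.

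**Figure D1:**
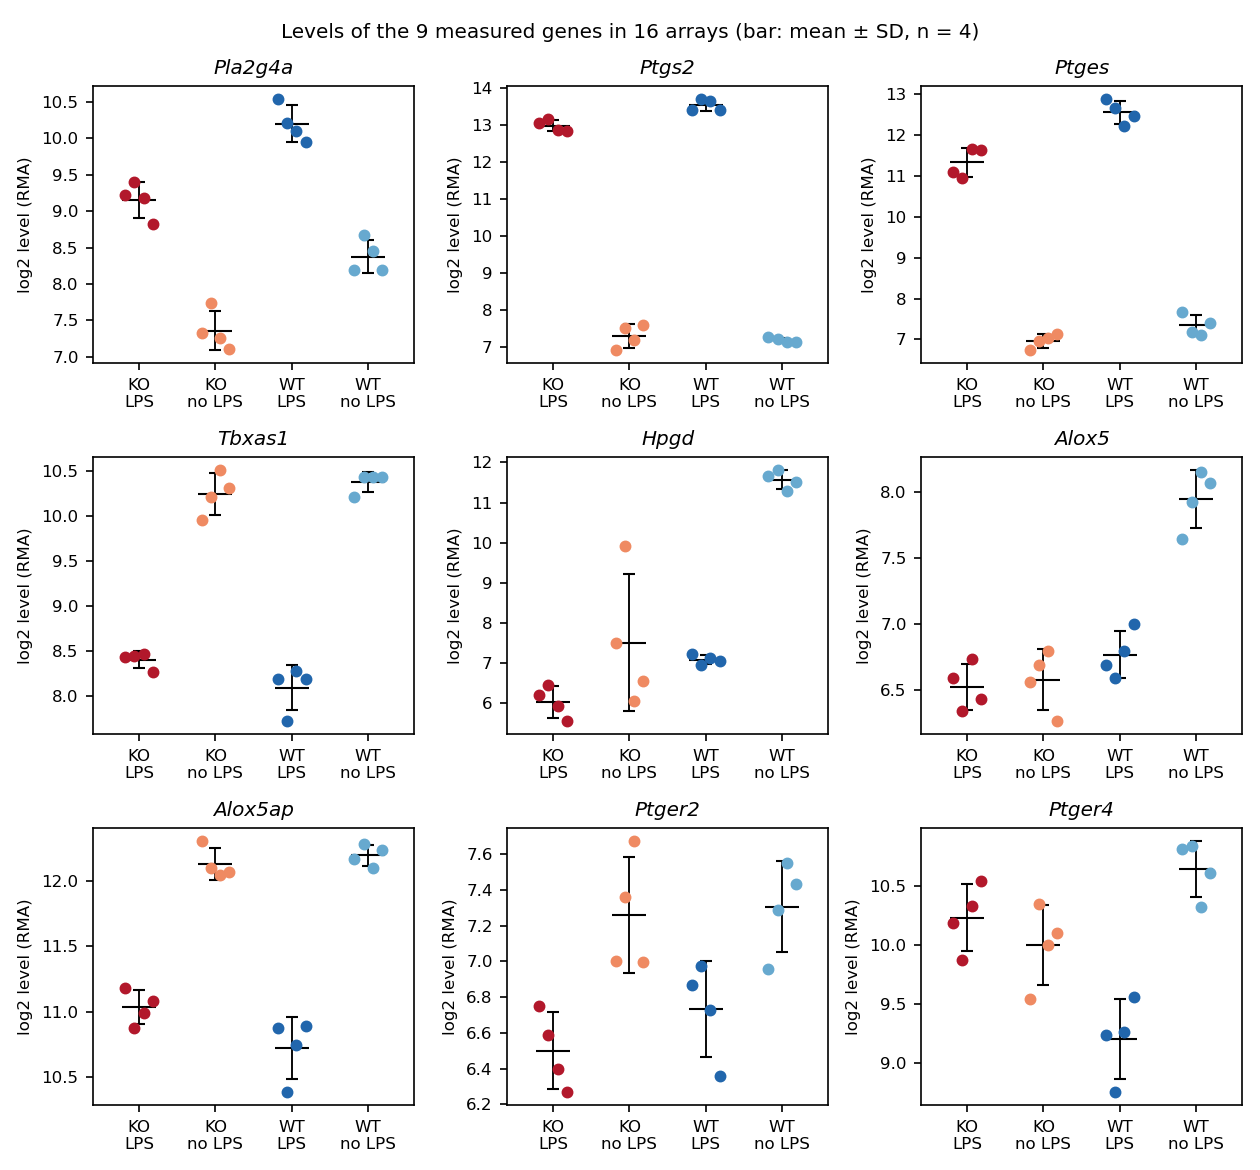
Log2 RMA level of each of the 9 measured genes (y axis, a separate scale per panel that does not start at 0) in every array, grouped along the x axis by genotype and treatment; bars give the mean ± SD of 4 arrays. Ptgs2 and Ptges are high in both LPS groups, Hpgd and Alox5 are highest in the wild-type group without LPS, with 1 unstimulated KO array at 9.91 for Hpgd, and Ptger4 is lowest in wild-type cells with LPS, where all 4 arrays lie at or below 9.56.

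In wild-type macrophages LPS raised the RNA of 3 listed enzymes on the line to prostaglandin E2, Pla2g4a, Ptgs2 and Ptges. It lowered that of the listed thromboxane, leukotriene and breakdown genes and of both listed receptors. All 9 measured genes were called, 3 higher and 6 lower, where 30.8% of all genes were called (14% higher and 16.8% lower). In bulk cultures fewer cells of a kind and less RNA per cell cannot be told apart. The median absolute log2 difference of the 9 was 1.83, against 0.18 over all genes. The 9 were chosen with earlier results of these data known and lay at percentiles 46.6 to 98.2 of mean level. Shares over all genes, which include many dimmer ones, are therefore no test of the 9. In KO cells 7 of the 9 were called, 3 higher and 4 lower, where 24.7% of all genes were (12% higher and 12.7% lower), with a median absolute difference of 1.48 against 0.14. The arrays with and without LPS did not overlap for 6 of the 9 in KO and 8 of the 9 in wild-type cells, where this held for 24.8% and 32.3% of all genes.

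Pla2g4a, the phospholipase at the head of the pathway, read 9.23, 9.40, 9.18 and 8.82 in KO cells with LPS and 7.33, 7.74, 7.26 and 7.10 in KO cells without it. In wild-type cells it read 10.55, 10.22, 10.10 and 9.95 with LPS and 8.19, 8.67, 8.45 and 8.19 without. The LPS and unstimulated arrays did not overlap in either genotype, and KO arrays lay below all wild-type arrays of the same treatment. LPS raised it 3.48-fold in KO cells (1.80 ± 0.160, adjusted p = 7.13e-08) and 3.55-fold in wild-type cells (1.83 ± 0.160, adjusted p = 4.24e-08).

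Ptgs2, the inducible cyclooxygenase, had levels of 13.06, 13.17, 12.89 and 12.86 with LPS and 6.92, 7.52, 7.19 and 7.61 without it in KO cells. The wild-type arrays gave 13.42, 13.72, 13.66 and 13.41 with LPS and 7.29, 7.22, 7.16 and 7.15 without it. Every LPS array lay far above every unstimulated array of its genotype, the gap being 5.25 in KO and 6.13 in wild-type cells. The rise was 51.4-fold in KO cells (5.68 ± 0.131) and 81.6-fold in wild-type cells (6.35 ± 0.131), which placed Ptgs2 at rank 2 of 19937 genes by size of rise in KO cells and rank 3 in wild-type cells. Over the 16 arrays the genes with the pattern most like Ptgs2 were Tnf, Cxcl2 and Zfp131, with Pearson r of 0.998, 0.997 and 0.996, given as a description over arrays that fall into the same groups.

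Ptges, the synthase that follows Ptgs2, moved in the same direction. Its KO arrays read 11.09, 10.95, 11.65 and 11.62 with LPS and 6.73, 6.95, 7.03 and 7.13 without. Its wild-type arrays read 12.89, 12.65, 12.23 and 12.46 with LPS and 7.66, 7.19, 7.11 and 7.40 without. The KO arrays with LPS all lay below the wild-type arrays with LPS. LPS raised Ptges 20.6-fold in KO cells (4.37 ± 0.172, adjusted p = 2.70e-12) and 37.1-fold in wild-type cells (5.21 ± 0.172, adjusted p = 1.90e-13), rank 12 and rank 7 among all rises.

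Tbxas1, which makes thromboxane from the same intermediate, fell while Ptges rose. With LPS it read 8.44, 8.45, 8.46 and 8.27 in KO cells and 8.19, 7.72, 8.28 and 8.19 in wild-type cells. Without LPS it read 9.95, 10.21, 10.51 and 10.30 in KO and 10.21, 10.43, 10.43 and 10.43 in wild-type cells. The falls were 3.58-fold in KO cells (-1.84 ± 0.126) and 4.86-fold in wild-type cells (-2.28 ± 0.126), and the groups did not overlap in either. Alox5ap, the partner of 5-lipoxygenase, fell 2.13-fold in KO cells (-1.09 ± 0.110), where it lay at 10.88 to 11.18 with LPS and 12.04 to 12.31 without. In wild-type cells it fell 2.77-fold (-1.47 ± 0.110), with 10.38 to 10.89 with LPS and 12.10 to 12.28 without.

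Hpgd, the prostaglandin-degrading enzyme, had the largest fall with LPS of all 19937 genes in wild-type cells. There it read 7.22, 6.94, 7.12 and 7.04 with LPS and 11.66, 11.82, 11.28 and 11.52 without, a 22.5-fold difference (-4.49 ± 0.522, adjusted p = 1.66e-06) across a gap of 4.06. In KO cells it read 6.19, 6.46, 5.92 and 5.54 with LPS and 7.50, 9.91, 6.05 and 6.55 without, in the order of arrays 1 to 4. The unstimulated KO arrays were thus spread widely, with number 2 far above the others, and they overlapped the LPS arrays. The KO difference was -1.48 ± 0.522 (adjusted p = 0.0462). Its call was lost in 17 of 26 alternative settings, and without KO array 2 the difference was -0.68 (adjusted p = 0.0717). An exact two-sided permutation test of the 4 against 4 arrays gave p = 0.114 in KO cells and p = 0.0286, the smallest it can give, in wild-type cells.

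Alox5 fell with LPS in wild-type cells, where the arrays read 6.69, 6.59, 6.79 and 7.0 with LPS and 7.65, 7.92, 8.15 and 8.07 without (-1.18 ± 0.134, 2.26-fold, adjusted p = 1.30e-06). In KO cells they read 6.59, 6.34, 6.73 and 6.43 with LPS and 6.56, 6.69, 6.79 and 6.26 without, overlapping ranges with a difference of -0.05 (95% interval -0.34 to 0.23, adjusted p = 0.858). The KO arrays of both treatments and the wild-type LPS arrays all lay below the unstimulated wild-type arrays, the lowest of which read 7.65. The genes most like Alox5 over the 16 arrays were Med22, Stx2 and Mbp (r of 0.935, 0.923 and 0.907), and those most like Hpgd were Mbp, Nf2 and Cyp4f18 (0.916, 0.901 and 0.90).

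The receptors differed in their KO response. Ptger4, encoding the EP4 receptor, read 10.18, 9.87, 10.33 and 10.54 with LPS and 9.54, 10.35, 10.003 and 10.10 without in KO cells, ranges that overlapped. Wild-type arrays read 9.24, 8.75, 9.27 and 9.56 with LPS and 10.81, 10.84, 10.32 and 10.60 without, with no overlap. The difference was 0.23 ± 0.187 in KO cells (95% interval -0.16 to 0.63, adjusted p = 0.475) and -1.44 ± 0.187 in wild-type cells (2.71-fold lower, adjusted p = 6.31e-06). Ptger2, encoding the EP2 receptor, lay at 6.27 to 6.75 with LPS and 6.997 to 7.67 without in KO cells. Its KO arrays with LPS thus all lay below the array medians of 6.76 to 6.86. In wild-type cells it lay at 6.36 to 6.98 with LPS and 6.96 to 7.55 without, so that these groups overlapped slightly. It fell 1.69-fold in KO cells (-0.76 ± 0.169, adjusted p = 0.00214) and 1.49-fold in wild-type cells (-0.57 ± 0.169, adjusted p = 0.0139). The wild-type call was lost without wild-type LPS array 4 (adjusted p = 0.0593) or unstimulated array 3 (0.0528) and on arrays 1 to 3 alone (0.104).

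**Figure D2:**
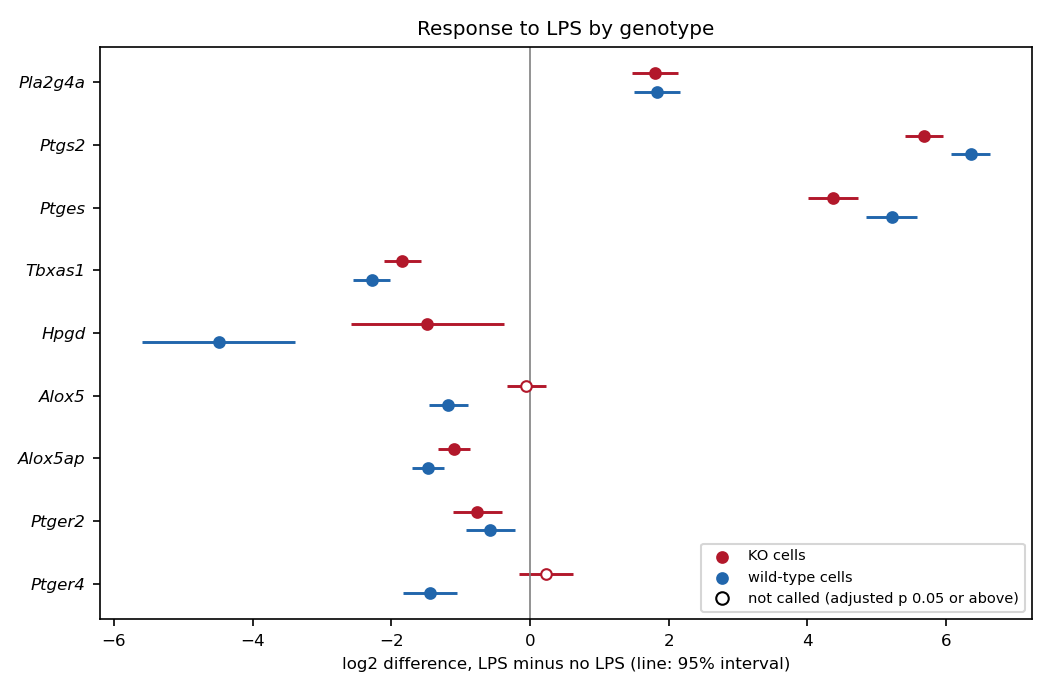
Log2 difference between arrays with and without LPS (x axis) for each gene (y axis) in KO cells (red) and wild-type cells (blue), with 95% intervals from the limma fit; filled points passed an adjusted p of 0.05. In wild-type cells Alox5 is at -1.18 and Ptger4 at -1.44, and both have KO intervals that include 0.

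Without LPS, the genotypes differed in 3 of the 9 genes, all lower in KO cells, where 1.0% of all genes were called (0.863% lower). The groups did not overlap for these 3, as for 4.33% of all genes. The 3 stand at different steps: Hpgd in breakdown, Alox5 in leukotriene synthesis and Pla2g4a in arachidonate release. Hpgd, at the array values given above, was 16.8-fold lower (-4.07 ± 0.522, adjusted p = 0.000253), the second largest fall of all genes, and without KO array 2 the difference was -4.87 (adjusted p = 9.70e-09). KO array 2, at 9.91, was the nearest to wild type, and KO array 4, the female one, was at 6.55 against at least 11.28 in wild-type arrays. Alox5 was 2.58-fold lower (-1.37 ± 0.134, adjusted p = 9.96e-06), with KO array 4 the lowest at 6.26. Pla2g4a was 2.03-fold lower (-1.02 ± 0.160, adjusted p = 0.00214), with KO array 4 again the lowest at 7.10. The Pla2g4a call was lost in 1 of 26 alternative settings, while those of Hpgd and Alox5 were kept in all 26. On the arrays of female pattern alone, Hpgd, Alox5 and Pla2g4a differed by -5.02, -1.68 and -1.28. These arrays hold 1 KO array per treatment, so the spread among KO arrays is not measured there and only differences are given. For Hpgd the SD over all unstimulated arrays was 1.71 in KO and 0.23 in wild-type cells.

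The cyclooxygenase and the E synthase were not called in the same comparison. Ptgs2 differed by 0.11 (95% interval -0.17 to 0.38) and Ptges by -0.38 (-0.74 to -0.02, adjusted p = 0.601). Tbxas1 differed by -0.13 (-0.40 to 0.14), Alox5ap by -0.07 (-0.30 to 0.17), Ptger2 by -0.05 (-0.40 to 0.31) and Ptger4 by -0.65 (-1.04 to -0.25, adjusted p = 0.158). For Ptges and Ptger4 the single-gene interval lies below 0 while the p adjusted over all genes does not pass.

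With LPS, RNA of Pla2g4a, Ptgs2 and Ptges was lower in KO cells, and that of the receptor Ptger4 was higher. Ptges2 and Ptges3, E synthase genes of the wider list below, were not called. With LPS they averaged 7.44 and 10.34 in KO and 7.77 and 10.42 in wild-type cells. In all, 4 of the 9 genes were called, 1 higher and 3 lower, where 3.05% of all genes were (1.80% higher and 1.26% lower). Ptges was 2.34-fold lower (-1.23 ± 0.172, adjusted p = 0.000472), Pla2g4a 2.07-fold lower (-1.05 ± 0.160, adjusted p = 0.000856) and Ptgs2 1.47-fold lower (-0.56 ± 0.131, adjusted p = 0.0235). None of the 3 overlapped between genotypes, with gaps of 0.57, 0.55 and 0.24, where the groups did not overlap for 7.73% of all genes. Ptger4 was 2.04-fold higher (1.03 ± 0.187, adjusted p = 0.00388), also without overlap, by a gap of 0.31.

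The female KO array 4 lay at 12.86 for Ptgs2, 11.62 for Ptges, 8.82 for Pla2g4a and 10.54 for Ptger4 with LPS, against wild-type values of at least 13.41, 12.23 and 9.95 and at most 9.56. On the arrays of female pattern alone, with 1 KO array per treatment, the differences were -0.69, -0.93, -1.39 and 1.33. With a term for sex in the full fit Ptgs2 differed by -0.47 (adjusted p = 0.138), while Ptges, Pla2g4a and Ptger4 were still called (adjusted p = 0.0173, 0.000810 and 0.0103). Without the block, the sex term rests on KO array 4 of each treatment against KO arrays 1 to 3. It cannot tell sex from array number 4. With the sex term and the replicate block together, Pla2g4a was called (adjusted p = 0.0108), and Ptges, Ptger4 and Ptgs2 lost their calls (0.126, 0.129 and 0.440). The Ptgs2 call was also lost without KO LPS array 3 or 4 (adjusted p = 0.0795 and 0.0668) or wild-type LPS array 2 or 3 (0.104 and 0.0672).

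Hpgd with LPS lay at 5.54 to 6.46 in KO and 6.94 to 7.22 in wild-type cells, without overlap. The difference was -1.06 ± 0.522 and was not called (adjusted p = 0.480), in a fit whose spread for this gene includes the scattered unstimulated KO arrays. Fitted on the 8 LPS arrays only it was called (adjusted p = 0.0103), as it was without unstimulated KO array 2 (0.0209). On the arrays of female pattern, with 1 KO array per treatment, the Hpgd difference was -1.54. Over the 8 LPS arrays the exact permutation test gave p = 0.0286, the smallest possible. Alox5 differed by -0.25 (95% interval -0.53 to 0.04), Ptger2 by -0.23 (-0.59 to 0.12), Tbxas1 by 0.31 (0.05 to 0.58, adjusted p = 0.297) and Alox5ap by 0.31 (0.08 to 0.54, adjusted p = 0.194), none of them called.

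**Figure D3:**
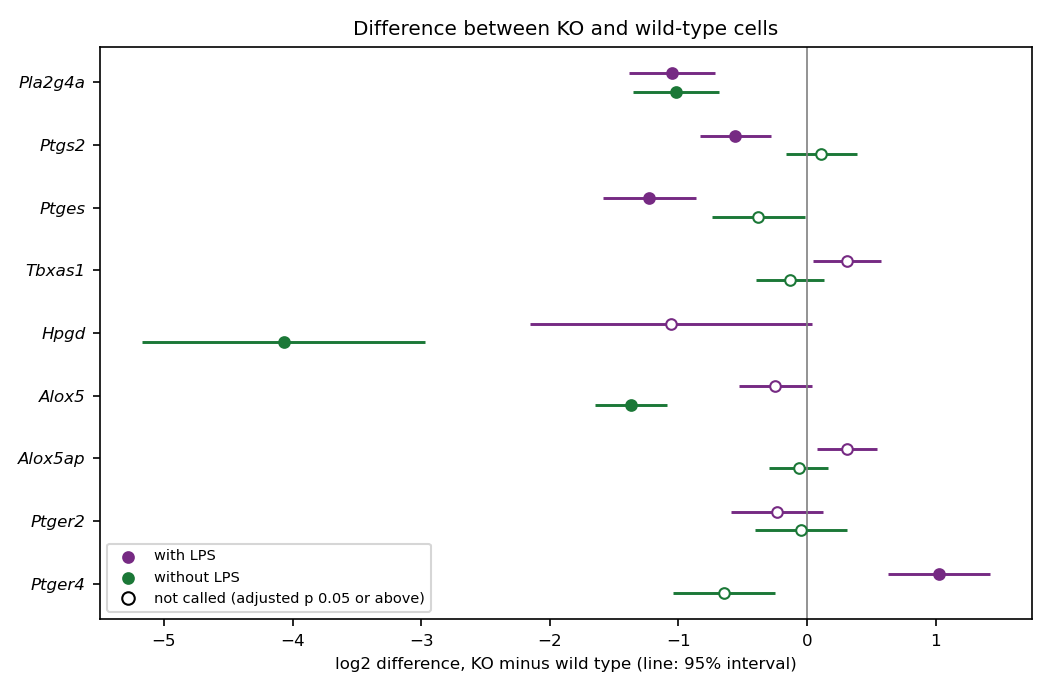
Log2 difference between KO and wild-type arrays (x axis) for each gene (y axis), with LPS (purple) and without (green), with 95% intervals from the limma fit; filled points passed an adjusted p of 0.05. Hpgd, at -4.07, and Alox5, at -1.37, stand apart without LPS, and Ptger4 has opposite signs in the 2 treatments, at 1.03 with LPS and -0.65 without.

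Whether the genotypes differed in their response to LPS was tested for each gene. The test called 2 of the 9, both with a more positive change in KO cells, where it called 1.29% of all genes (0.988% in this direction and 0.301% in the other). For Ptger4 the response was 1.67 ± 0.265 higher in KO than in wild-type cells (adjusted p = 0.00588), so the wild-type fall in its RNA was not seen in KO cells. Without LPS its KO level differed from wild type by -0.65, which was not called (adjusted p = 0.158). For Alox5 it was 1.12 ± 0.190 higher (adjusted p = 0.00932), and here the KO cells already had a low level before LPS. Alox5 in KO arrays lay at 6.34 to 6.73 with LPS and 6.26 to 6.79 without, within or below the array medians of 6.76 to 6.86. Hpgd in KO arrays with LPS, at 5.54 to 6.46, also lay below these medians. Whether a further fall could show at such levels was not tested. For Hpgd the difference was 3.01 ± 0.738, the largest of all 19937 genes in the positive direction, with adjusted p = 0.0539. It was called with the replicate number as a block (adjusted p = 0.0188) and without unstimulated KO array 2 (3.81, adjusted p = 1.04e-04).

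For the synthesis genes the smaller KO rises were not called as different: -0.67 for Ptgs2 (95% interval -1.06 to -0.28, adjusted p = 0.101) and -0.85 for Ptges (-1.36 to -0.33, adjusted p = 0.118). Without unstimulated KO array 1 the Ptgs2 difference was -0.80 and was called (adjusted p = 0.0299). For Pla2g4a the difference in response was -0.03 (-0.50 to 0.45), and its KO level was lower by close amounts in both treatments, with differences of -1.05 with LPS and -1.02 without. Tbxas1 (0.44, adjusted p = 0.354), Alox5ap (0.38, adjusted p = 0.378) and Ptger2 (-0.19, adjusted p = 0.886) were not called. On the arrays of female pattern alone the differences for Ptger4 and Alox5 were 1.88 and 1.34, in a fit that cannot measure the spread among KO arrays. With the term for sex in the full fit both were called (adjusted p = 0.00465 for each). This is no check on sex. Both KO groups hold 3 male arrays and 1 female array and all wild-type arrays are female, so the term cannot change these differences.

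A list of 51 other genes of eicosanoid metabolism and sensing, 48 of them measured, gives the surroundings. With LPS 18 of the 48 were called in KO cells (8 higher and 10 lower) and 21 in wild-type cells (11 higher and 10 lower), with median absolute differences of 0.14 and 0.24 against 0.14 and 0.18 over all genes. Daglb, a diacylglycerol lipase that supplies arachidonate, fell with LPS, with differences of -2.19 in KO and -2.55 in wild-type cells. So did Pla2g15, a lysosomal phospholipase (-2.11 in KO and -2.85 in wild-type cells), and Hpgds, the haematopoietic prostaglandin D synthase (-2.05 in each). Cbr3, a carbonyl reductase, had differences of -1.31 in KO and -1.71 in wild-type cells, and Ptgr2, which reduces prostaglandin breakdown products, of -1.08 and -1.73. Lta4h, the enzyme that makes leukotriene B4, and Ptgir, the prostacyclin receptor, were picked after their values were seen: Lta4h fell (-1.29 in KO and -1.64 in wild-type cells) and Ptgir rose (0.75 and 1.24).

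Between genotypes without LPS limma called 0 of the 48, with 4 at an unadjusted p under 0.05, where 1.0% of all genes were called. The replicate block added 1, Cyp4f18, which inactivates leukotriene B4 in mouse (-0.997, adjusted p = 0.0244). With LPS 2 of the 48 were called, where 3.05% of all genes were, both higher in KO cells: Pla2g15 (8.88 ± 0.212 in KO and 8.19 ± 0.140 in wild-type cells, adjusted p = 0.000942) and Ptgr2 (7.25 ± 0.269 and 6.68 ± 0.168, adjusted p = 0.0313). With the replicate block 5 were called, the added ones being Lta4h (0.56, adjusted p = 0.0357), Lpcat2 (-0.44, adjusted p = 0.0266) and Ptgir (-0.45, adjusted p = 0.0120). The LPS response of Pla2g15 also differed, by 0.75 ± 0.149 (adjusted p = 0.0180).

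**Figure D4:**
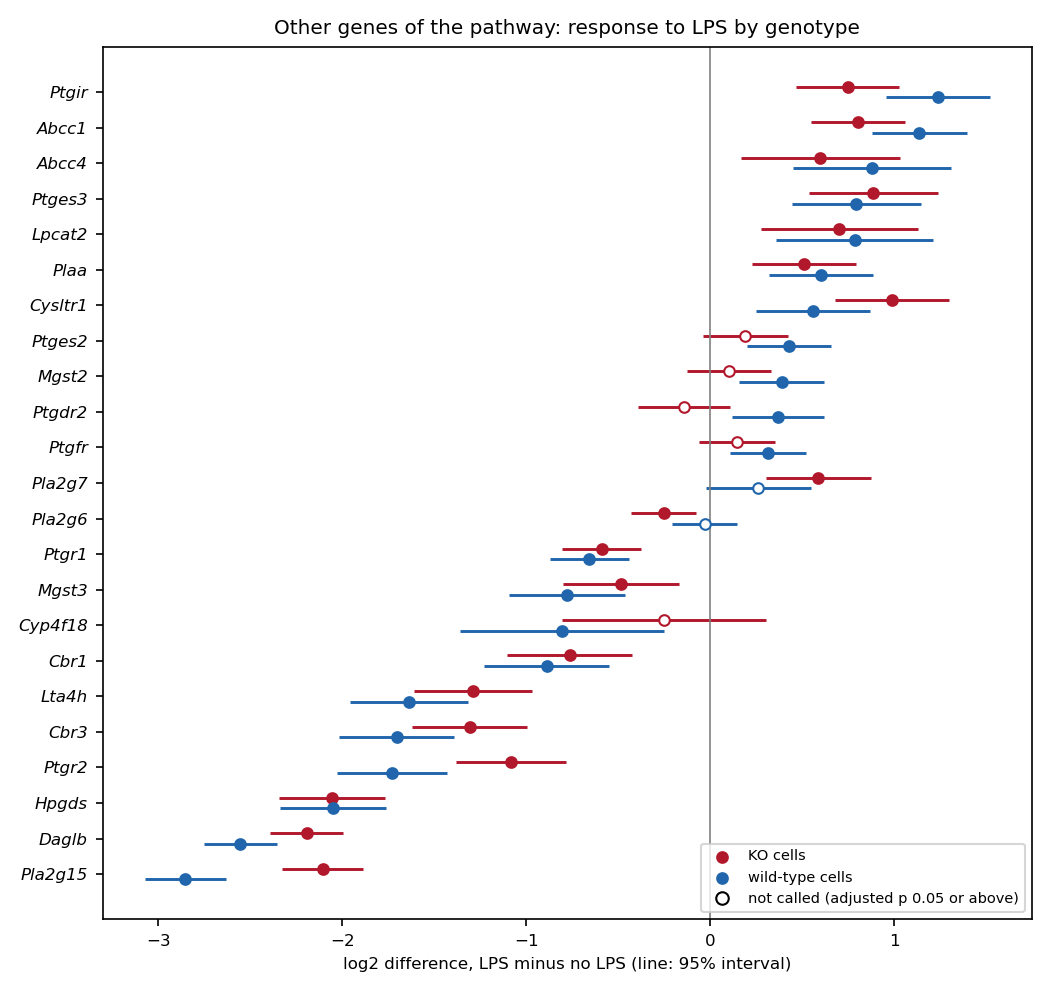
Log2 difference between arrays with and without LPS (x axis) for the 23 genes of the wider eicosanoid list called in either genotype (y axis), in KO cells (red) and wild-type cells (blue), with 95% intervals; filled points passed an adjusted p of 0.05. Pla2g15, Daglb and Hpgds have the largest falls, at -2.05 or lower in both genotypes.

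Some markers of other cell types moved with LPS beside these genes. Of 8 megakaryocyte and platelet markers 6 were measured, and in each genotype Pf4 rose (1.21 in KO and 1.46 in wild-type cells) and Treml1 fell (-1.31 and -0.90), while their mean level ranged from 7.14 to 7.69 in KO cells with LPS, 7.14 to 7.52 in KO cells without, 7.22 to 7.44 in wild-type cells with LPS and 6.97 to 7.18 in wild-type cells without. Of 8 mast cell and basophil markers Hdc rose (1.09 in KO and 1.91 in wild-type cells) and 7 were not called. The largest move was that of the stromal Pdgfrb, which rose with LPS by 3.16 in KO and 3.88 in wild-type cells and was lower in KO cells with LPS (9.91 in KO and 10.81 in wild-type cells, a difference of -0.90, adjusted p = 0.00169), while the other 5 stromal markers were not called. The dendritic cell list had 2 of 6 called with LPS in each genotype, Itgax and Xcr1, and Itgax was lower in KO cells with LPS (-1.83, adjusted p = 0.0229). Of 8 macrophage markers LPS called 5 in KO cells (3 higher and 2 lower) and 4 in wild-type cells (1 higher and 3 lower). Between genotypes, Mertk was higher in KO cells with LPS (0.79, adjusted p = 0.00891) and Cd14 lower without it (-1.20, adjusted p = 5.13e-05). The neutrophil list had 1 of 8 called in each genotype with LPS (S100a8 in KO and Camp in wild-type cells, by 0.35 and 0.79). With LPS 24.7% of all genes were called in KO and 30.8% in wild-type cells. The part of these markers in the results above was not tested.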

How the data were processed

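RNA from each sample was hybridised to a 1-channel Affymetrix array. The deposited values are log2 levels per probe set made by RMA, per the submitters' processing notes, which give no version, and RMA normalises all arrays to a common distribution. Of 34760 probe sets 21640 had a single gene in the platform annotation, 1321 several and 11799 none listed. For 19937 genes the probe set with the highest mean over 16 arrays was used. A single linear model with a mean per group was fitted to all arrays (limma 3.58.1, R 4.3.3, 12 residual degrees of freedom). Benjamini-Hochberg adjustment ran over the whole gene table, with a threshold of 0.05. The fit was also run on simulated data with independent errors per array. That run held no pairing by replicate number, sex difference or unequal spread of groups, so it does not test for these.

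Groups and replicate numbers came from the sample titles. Whether the 4 arrays of a group stem from different animals or cultures is not stated, so p-values measure only the spread among these samples, and that spread may be technical. For equal replicate numbers, KO and wild-type deviations from the group mean had correlations of 0.16 to 0.44 without LPS and 0.19 to 0.52 with LPS, all above 0.1, so the numbers paired the genotypes. The main fit, which gave the genotype results and shares above unless stated, does not use this pairing, while the replicate block does. Between genotypes with LPS the block called 950 of all genes, against 609 in the main fit.

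The 10 genes and the lists were chosen with earlier results of these data known. All 10 were named throughout. From the wider list up to 4 called genes with the smallest p per comparison were named, and 3 genes most like Ptgs2, Hpgd and Alox5, searched among 10576 genes at or above the median level. Promoter sequences came from RefSeq (GRCm38.p6) and covered 9 of the 10 genes, all but Alox5ap. Alternatives covered scaling, a filter on dim genes, probe set choice, the variance prior, the arrays fitted, the replicate block, each array left out and sex. After the data were seen, sex with the block and the exact permutation test of Hpgd were added.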

Additional observations from a re-analysis of the deposited data

Results flagged for a closer look

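The LPS response differed between genotypes for Ptger4, by 1.67 on the log2 scale (KO minus wild type), and for Alox5, by 1.12, both by the interaction test of the limma fit. The KO levels of Alox5 lay within or below the range of the array medians, as given above. Among 36 groups of 4 arrays tested for a single distant array, Tbxas1 gave all 3 that stood out, where chance gives about 1 in 20. KO array 4 with LPS read 8.27, against 8.44 to 8.46 in the other KO arrays with LPS. Wild-type array 2 with LPS read 7.72, against 8.19 to 8.28 in the others, and unstimulated wild-type array 1 read 10.21, against 10.43 in each of the others.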

How the results depend on the processing

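Over 26 alternatives (25 for the difference in response, which always uses all groups), 33 of 45 gene and comparison combinations kept their call throughout, and 35 of 1161 values lost a call and 11 gained one. With LPS, 4 genes differed between genotypes. With the replicate block and the sex term together 1 did, Pla2g4a. The alternatives include the arrays of female pattern, which hold 1 KO array per treatment. Calls there do not measure the spread among KO arrays. Most of the calls with LPS were lost on those arrays. So were those for the difference in response, of Ptger4 and Alox5, while the response difference of Hpgd was 3.48. With each array left out in turn 3 to 5 genes were called with LPS and 2 to 3 for the difference in response. The replicate block changed no other call of the 9 genes than that of Hpgd for the difference in response. The block's bearing on LPS comparisons is a hint only: same-numbered arrays correlated by -0.06 to 0.56 in KO and 0.05 to 0.43 in wild-type cells, and 4 and 6 of 8 arrays correlated best with their own number.

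Signs turned only for values that were never called. Alox5 in KO cells with LPS gave 0.17 on the arrays of female pattern and -0.16 to 0.0171 with 1 array left out. Without LPS, Ptgs2 gave -0.0107 and Ptger2 0.0822 on arrays 1 to 3, and Ptger2 gave -0.19 to 0.0408 with 1 array left out. The response difference of Pla2g4a gave 0.0391 after median centring and -0.13 to 0.10 with 1 array left out. Over all genes, LPS in KO cells called 4919, against 1962 on the arrays of female pattern. Counts over all genes ranged from 58 to 359 for KO against wild type without LPS (200 in the report), 89 to 950 with LPS (609) and 4 to 469 for the difference in response (257). The other eicosanoid genes called ranged from 0 to 2, 0 to 6 and 0 to 1 in these comparisons. The cause of these shifts was not tested. Precision is limited by having 4 arrays per group.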
